A study of Homo sapiens with 6 samples.

Results

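The CYP4 fatty acid hydroxylases are cytochrome P450 enzymes of the endoplasmic reticulum that add a hydroxyl group to the far (omega) end of a fatty acid. Alcohol and aldehyde dehydrogenases then turn the product into a dicarboxylic acid, which peroxisomes shorten. In human liver, CYP4A and CYP4F enzymes also act on arachidonic acid, leukotriene B4 and the side chains of vitamins E and K. The 8 genes described here were taken by symbol: CYP4A11, CYP4A22, CYP4F2, CYP4F3, CYP4F11, CYP4F12, CYP4V2 and CYP4X1. All 8 were present among 16659 genes of the deposited table.

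RNA was sequenced from HepaRG, a human line of hepatic progenitor cells grown from a liver tumour, labelled as hepatic stem cells. There were 3 libraries of untreated cells labelled as a functional knockout of PXR and 3 libraries of untreated wild-type cells, the control. PXR, the pregnane X receptor encoded by NR1I2, is a ligand-activated transcription factor of liver and gut that senses drugs and induces genes of their metabolism. The labels used here do not say how the knockout was made, whether it is 1 clone, or whether libraries of a group came from separate cultures, so p-values cover only the spread between these libraries, and that spread may be technical. Levels are in scaled CPM, read counts relative to a library size to which the authors had applied a factor per library. Log2 fold changes are knockout minus wild type on log2(scaled CPM + 0.5), which understates the change of low genes, and tests are limma's with Benjamini-Hochberg adjustment over 16219 genes (threshold 0.05).

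The estimated depth was 28154914 to 33393110 reads in knockout libraries and 11359209 to 20945994 reads in wild-type libraries, so every knockout library was deeper. NR1I2 itself measured 13.1, 13.4 and 14.3 scaled CPM in knockout libraries and 8.24, 7.04 and 7.60 in wild-type libraries. A value over the whole gene does not check a functional knockout. Hepatocyte markers moved with the groups: all 9 measured rose, and their summed level was 43192 to 44390 scaled CPM in knockout libraries against 2273 to 2351 in wild-type libraries. Most of the knockout sum was ALB, which averaged 32829.1 in the knockout and 867.5 in wild type. Markers of other cell types moved both ways. Of 7 stellate and mesenchymal markers, 4 rose, led by DCN and ACTA2, and DES, PDGFRB and LRAT fell, with a summed level of 405 to 421 in knockout libraries against 108 to 111 in wild-type libraries. Of 4 bile duct markers, KRT19 and SOX9 rose and SPP1 and KRT7 fell, with a sum of 373 to 399 in knockout libraries against 489 to 515 in wild-type libraries. The endothelial sum of 215 to 222 in knockout libraries against 54.8 to 55.1 in wild-type libraries was nearly all KDR, which rose, while PECAM1 fell. Of 3 macrophage and leukocyte markers, CD68 and LYZ rose and CD14 fell, with a sum of 22.7 to 24.1 in knockout libraries against 13.6 to 16.9 in wild-type libraries. For other cells rich in CYP4 enzymes, summed levels in knockout against wild-type libraries were 1.63 to 1.78 against 1.57 to 1.96 for 2 kidney tubule markers, of which CUBN fell and LRP2 was not tested, and 83.0 to 88.5 against 53.7 to 56.7 for S100A8 and S100A9 of the neutrophil list, which both rose. Many listed markers were absent from the deposited table. Measured were 9 of 10 hepatocyte, 7 of 8 stellate and mesenchymal, 4 of 8 bile duct and 3 of 6 macrophage and leukocyte markers. For endothelium, kidney tubule and neutrophil it was 2 of 6 each, with MPO, ELANE, FCGR3B and CSF3R missing from the neutrophil list. Sums over so few markers do not show whether such cells were present. The part of these markers in the CYP4 results was not tested. In bulk RNA, fewer cells of a type and less RNA per cell cannot be told apart.

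The genes lie at 3 places in GRCh38. CYP4A11 (ENSG00000187048.13, chromosome 1, 46929177 to 46941484, minus strand), CYP4X1 (ENSG00000186377.8, 47023568 to 47050751, plus strand) and CYP4A22 (ENSG00000162365.12, 47137435 to 47149741, plus strand) share a cluster on chromosome 1. CYP4F3 (ENSG00000186529.16, chromosome 19, 15640897 to 15662825, plus strand), CYP4F12 (ENSG00000186204.14, 15672757 to 15697174, plus strand), CYP4F2 (ENSG00000186115.13, 15878023 to 15898120, minus strand) and CYP4F11 (ENSG00000171903.16, 15912367 to 15934867, minus strand) share a cluster on chromosome 19. CYP4V2 (ENSG00000145476.16, chromosome 4, 186191520 to 186213456, plus strand) stands alone among the 8.

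How alike the genes are limits how well their reads can be told apart. Over their longest complete coding sequences in GENCODE 29, CYP4A11 and CYP4A22 were 97.4% identical, differing at 40 of 1560 bases. CYP4F2 was 91.5% identical to CYP4F3, 88.9% to CYP4F11 and 86.5% to CYP4F12. Of all stretches of 100 coding bases, the read length, 12.5% were the same in CYP4A11 and CYP4A22 and 1.0% in CYP4F2 and CYP4F3, while CYP4F11, CYP4F12, CYP4V2 and CYP4X1 had no stretch of that length in common with another annotated CYP4 gene. The longest run of identical bases between the CYP4A genes was 176 bases. The 60 coding bases where the CYP4A genes differ most, bases 5 to 64 of each coding sequence, are shown to make visible how few letters separate their reads. Capitals mark the 7 bases that differ.
CYP4A11: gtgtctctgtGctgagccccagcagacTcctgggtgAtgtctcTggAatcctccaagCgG
CYP4A22: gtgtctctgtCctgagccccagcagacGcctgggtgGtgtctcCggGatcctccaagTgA

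The deposited values carry a trace of this. Those under 20 reads step in hundredths of a read. The estimated reads of CYP4A11 were fractional in 4 of 6 libraries, such as 741.20, 654.62 and 765.91 in the knockout libraries. Those of CYP4A22 were 190.80, 151.38 and 186.09 in the same libraries. The sum of both genes was a whole number of reads in 6 of 6 libraries, within 0.025 of a read: 932, 806 and 952 in knockout libraries and 7, 11 and 7 in wild-type libraries. The split between the pair is therefore the counting program's estimate, whereas their sum does not depend on it. CYP4F2 reads were fractional in all 6 libraries, and their sum with CYP4F3 was whole in only 2. CYP4X1 had whole reads in 6 of 6 libraries and CYP4F11 and CYP4F12 in 5 of 6, within the same 0.025 of a read. CYP4F11 missed it in wild-type library 2 (2425.97) and CYP4F12 in knockout library 1 (1487.03). Both lay just outside the tolerance and do not show a split of reads. CYP4A22 is also overlapped on the other strand by an annotated antisense RNA, CYP4A22-AS1, which was not among the genes of the deposited table. The sources used here do not say whether reads were counted by strand.

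The CYP4F genes stand side by side and differ in their changes, so the windows around their starts are shown, from 250 bases before to 50 after the RefSeq start (GRCh38.p14, given 5′ to 3′ on the gene's own strand). Windows were found for 5 of the 8 genes: CYP4F2, CYP4F3, CYP4F11, CYP4V2 and CYP4X1. CYP4A11, CYP4A22 and CYP4F12 had no entry. Capitals mark matches, on either strand, to 5 motifs. AGGTCA and the related AGTTCA are elements that nuclear receptors bind, TATAAA is the TATA box, CCAAT is the CCAAT box, and the last was the HNF1 motif. The windows are CYP4F2 (chr19:15898025-15898324, minus strand), the outer start of CYP4F11 (chr19:15934818-15935117, minus strand), the inner start of CYP4F11 (chr19:15934480-15934779, minus strand) and CYP4F3 (chr19:15641062-15641361, plus strand).
CYP4F2: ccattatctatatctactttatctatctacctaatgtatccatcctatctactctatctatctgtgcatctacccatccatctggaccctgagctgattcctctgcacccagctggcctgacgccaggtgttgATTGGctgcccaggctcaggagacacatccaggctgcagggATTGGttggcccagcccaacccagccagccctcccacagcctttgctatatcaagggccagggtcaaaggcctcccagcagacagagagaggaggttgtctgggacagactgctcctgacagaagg
CYP4F11 outer: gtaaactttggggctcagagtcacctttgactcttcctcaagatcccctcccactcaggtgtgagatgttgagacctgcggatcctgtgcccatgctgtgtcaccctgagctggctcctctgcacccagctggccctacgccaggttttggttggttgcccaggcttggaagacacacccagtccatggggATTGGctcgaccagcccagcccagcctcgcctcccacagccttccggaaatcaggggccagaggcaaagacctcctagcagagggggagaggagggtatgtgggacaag
CYP4F11 inner: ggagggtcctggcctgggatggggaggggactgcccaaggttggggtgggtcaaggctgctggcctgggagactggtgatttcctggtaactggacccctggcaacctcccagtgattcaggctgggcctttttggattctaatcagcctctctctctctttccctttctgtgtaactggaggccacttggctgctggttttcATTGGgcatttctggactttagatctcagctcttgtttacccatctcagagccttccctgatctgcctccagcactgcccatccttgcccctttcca
CYP4F3: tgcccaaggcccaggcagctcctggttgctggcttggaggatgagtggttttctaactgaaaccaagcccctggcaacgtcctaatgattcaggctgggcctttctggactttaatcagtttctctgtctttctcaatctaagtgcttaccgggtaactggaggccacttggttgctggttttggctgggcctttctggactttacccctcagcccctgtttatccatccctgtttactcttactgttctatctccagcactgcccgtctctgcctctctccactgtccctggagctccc

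The windows paired across genes. CYP4F2 and the outer CYP4F11 window had 206 identical bases of 300 in a global alignment (68.7%), and CYP4F3 and the inner CYP4F11 window had 207 (69.0%). The other 19 pairs of the 7 windows had 46.0% to 54.3%. The only motif matched in these 4 windows was CCAAT, always on the opposite strand: at -117 and -76 from the start of CYP4F2, at -59 in the outer and -47 in the inner CYP4F11 window, and nowhere in that of CYP4F3. CCAAT was present in 34.6% of all 35116 windows. AGGTCA (13.8% of all windows) was matched once in a CYP4X1 window and once in that of CYP4V2, and AGTTCA (10.4%) in none of the 7. TATAAA (11.5%) was matched at 2 places in the same CYP4X1 window, and the HNF1 motif, found in 0.0057% of all windows, in none. No matches overlapped. These are matches of letters only, and say nothing of binding.

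In the knockout libraries 7 of the 8 genes were higher, none was lower, and CYP4F3 did not pass the test. Over all 16219 genes, 40.3% were called higher and 39.6% lower, 79.9% in all, so a call by itself was common. The groups did not overlap at the same 7 genes, against 80.8% of all genes tested. The sizes fell into separate ranges. CYP4A11, CYP4A22, CYP4F2 and CYP4X1 were at least 4-fold higher, a size reached by 4.82% of all genes tested. CYP4F11, CYP4F12 and CYP4V2 changed by under 2-fold. CYP4X1 was near the 4-fold limit, with a log2 fold change of 2.11. It fell below that limit with a pseudocount of 1 (1.78) and with quantile normalization (1.96). The median log2 fold change was 1.31 over the 8 genes and 0.01 over all genes tested. The 8 genes were chosen with earlier results of these data known, so these comparisons with all genes are description only. CYP4A11 and CYP4A22 were above 1 scaled CPM in no wild-type library and CYP4X1 in 1, so these 3 entered the test through their knockout level.

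**Figure D1:**
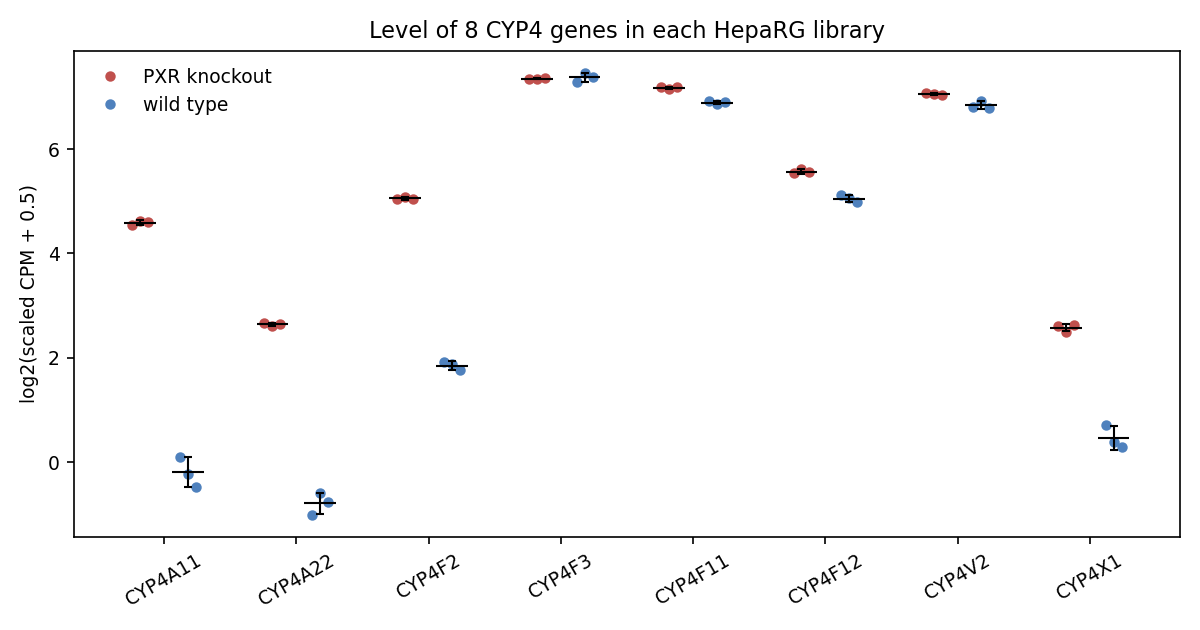
Level of each of the 8 CYP4 genes in the 3 PXR knockout and 3 wild-type libraries (points), as log2(scaled CPM + 0.5), with the mean (bar) and SD (whiskers) of each group. CYP4A11, CYP4A22, CYP4F2 and CYP4X1 sit far higher in the knockout libraries, and the groups overlap only at CYP4F3.

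CYP4A11, the main liver and kidney enzyme that hydroxylates lauric and arachidonic acid at the omega end, showed the largest change of the 8 genes on the tested scale. It measured 22.8, 24.3 and 23.8 scaled CPM in knockout libraries 1 to 3, against 0.577, 0.363 and 0.225 in wild-type libraries 1 to 3. Every knockout library lay far above every wild-type library, and the wild-type values rested on 19.59 estimated reads in all. The means were 23.6 ± 0.73 in the knockout and 0.388 ± 0.18 in wild type (SD, n = 3 each), a 60.9-fold ratio, and the log2 fold change was 4.78 ± 0.14 (SE, limma adjusted p = 4.3e-13).

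CYP4A22, its near-identical neighbour, whose catalytic role is less well defined, was detected at the edge of the measurement in wild type. It had 5.88, 5.61 and 5.79 scaled CPM in knockout libraries, against 0, 0.163 and 0.0900 in wild-type libraries. The wild-type values come from 5.41 estimated reads over the 3 libraries. For that total rounded to 5 reads, a 95% Poisson interval is 1.62 to 11.7 reads. It covers counting error only, and not the estimated split of reads with CYP4A11. The log2 fold change was 3.43 ± 0.15 (SE, limma adjusted p = 2.8e-11). The plain ratio of means was 68.2-fold, above the 60.9-fold of CYP4A11, so which of the pair changed most depends on the scale used. With a pseudocount of 0.1 in place of 0.5 it was 5.10, and with 1 it was 2.64, so its size is poorly fixed. Both CYP4A genes together, which does not depend on the split of reads, gave 28.7, 29.9 and 29.6 scaled CPM in knockout libraries and 0.577, 0.527 and 0.315 in wild-type libraries, a 62.2-fold ratio of means.

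CYP4F2 hydroxylates leukotriene B4, arachidonic acid and vitamins E and K. It rose to 32.3, 33.4 and 32.5 scaled CPM in knockout libraries, against 3.29, 3.17 and 2.89 in wild-type libraries. The groups stood far apart, with little spread within either. Means were 32.7 ± 0.57 and 3.12 ± 0.21 (SD, n = 3 each) in knockout and wild type, a 10.5-fold ratio, with a log2 fold change of 3.20 ± 0.078 (SE, limma adjusted p = 7.9e-14). The wild-type values rested on 170.5 estimated reads in all, fractional in every library, beside 9231.4 of the similar gene CYP4F3. Whether some of these reads came from CYP4F3 was not tested, so the size of the ratio is uncertain.

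CYP4F3, an omega-hydroxylase of leukotriene B4 with splice forms in neutrophils and in liver that a value per gene sums up, did not pass the test. It measured 162, 161 and 163 scaled CPM in knockout libraries, against 155, 174 and 167 in wild-type libraries. The 3 knockout values lay inside the range of the wild-type values. The log2 fold change was -0.03 ± 0.037 (SE, limma adjusted p = 0.497). Without wild-type library 1 it was -0.07 (adjusted p = 0.0354) and past the threshold, and without wild-type library 2 it was 0.01 (adjusted p = 0.792).

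CYP4F11, which acts on long-chain hydroxy fatty acids and vitamin K, was slightly higher in the knockout. It had 145, 141 and 144 scaled CPM in knockout libraries, against 120, 116 and 118 in wild-type libraries, a log2 fold change of 0.28 ± 0.028 (SE, limma adjusted p = 4.1e-07). CYP4F12, which oxidises fatty acids and some antihistamine drugs, had 45.8, 48.5 and 46.5 scaled CPM in knockout libraries, against 34.0, 32.9 and 31.0 in wild-type libraries, a log2 fold change of 0.52 ± 0.046 (SE, limma adjusted p = 1.2e-07). The groups were apart at both genes, and the differences were small beside that of CYP4F2 in the same cluster.

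CYP4V2, a medium-chain fatty acid hydroxylase whose loss causes Bietti crystalline dystrophy of the retina, had the smallest change that passed. It measured 135, 133 and 130 scaled CPM in knockout libraries, against 112, 121 and 110 in wild-type libraries. The groups did not overlap, and the log2 fold change was 0.21 ± 0.036 (SE, limma adjusted p = 7.1e-05). CYP4X1, an enzyme with few known substrates, had 5.58, 5.15 and 5.69 scaled CPM in knockout libraries, against 1.15, 0.814 and 0.720 in wild-type libraries. Its wild-type values rested on 47 reads in all, and its log2 fold change was 2.11 ± 0.14 (SE, limma adjusted p = 4.2e-09).

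**Figure D2:**
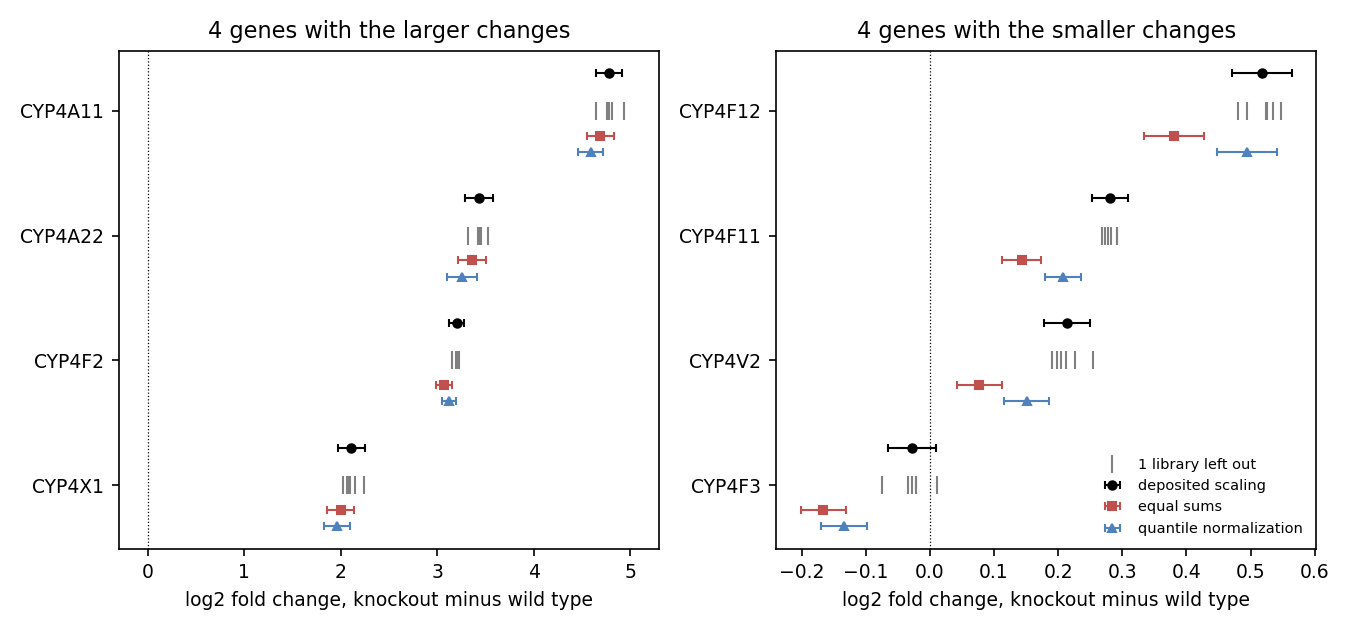
Log2 fold change, knockout minus wild type, of the 8 genes under the deposited scaling (black, bars are SE), with 1 library left out (grey ticks), with libraries scaled to equal sums (red) and with quantile normalization (blue). The 4 larger changes (left) stay between 1.78 and 5.67 under all alternatives run, whereas with the other scalings CYP4V2 (right, narrower axis) lies nearer to 0 and CYP4F3 further below it.

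The scaling between libraries decided the calls of the genes with the smallest changes. When libraries were scaled to equal sums, the median log2 change of all genes moved to -0.12, and CYP4V2 came to 0.08 (limma adjusted p = 0.0566) and CYP4F3 to -0.17 (adjusted p = 0.00059). Taken relative to that median, CYP4V2 was at 0.19 and CYP4F3 at -0.05, against 0.20 and -0.04 with the deposited scaling. CYP4F11 and CYP4F12 were lower under equal sums, at 0.14 and 0.38, and still passed.

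A plain ratio of 2 genes within a library does not depend on the scaling. The 9 ratios were chosen after the values were seen, and were tested as differences of log2(scaled CPM + 0.5). With that pseudocount, the tested form still depends on the scaling for genes of low level. CYP4F3 was the only member not called higher, so ratios to it largely restate the calls of the other members and add no separate support. CYP4F2 was 0.199, 0.208 and 0.199 of CYP4F3 in knockout libraries, against 0.0212, 0.0182 and 0.0173 in wild-type libraries. CYP4F11 was 0.896, 0.881 and 0.884 of CYP4F3 in knockout libraries, against 0.774, 0.666 and 0.709 in wild-type libraries. CYP4V2 was 0.830, 0.827 and 0.798 of CYP4F3 in knockout libraries, against 0.721, 0.693 and 0.661 in wild-type libraries. For all 7 other members the ratio to CYP4F3 was higher in every knockout library than in every wild-type library, each with an exact two-sided permutation p of 0.10, the smallest that 3 against 3 libraries allow (0.1125 after Benjamini-Hochberg adjustment over 9 ratios). The ratio of CYP4V2 to CYP4F11 was 0.903 to 0.939 in knockout libraries and 0.931 to 1.04 in wild-type libraries, which overlap (exact permutation p = 0.40, 0.40 after the same adjustment). The plain ratio of CYP4A22 to CYP4A11 was 0.231 to 0.257 in knockout libraries and 0 to 0.449 in wild-type libraries, which overlap. On the tested scale, where the pseudocount exceeds nearly all wild-type values of this pair, the difference was -1.35 (exact permutation p = 0.10, 0.1125 after the same adjustment).

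Per kb of annotated exon, the order of levels in the knockout was CYP4F11 (35.7 ± 0.48 scaled CPM per kb, SD, n = 3), CYP4F3 (29.4 ± 0.25), CYP4V2 (13.5 ± 0.21), CYP4F2 (10.4 ± 0.18), CYP4F12 (8.77 ± 0.26), CYP4A11 (6.08 ± 0.19), CYP4X1 (2.15 ± 0.11) and CYP4A22 (1.49 ± 0.036). In wild type it was CYP4F3 (29.98 ± 1.77), CYP4F11 (29.3 ± 0.49), CYP4V2 (11.7 ± 0.58), CYP4F12 (6.10 ± 0.29), CYP4F2 (0.992 ± 0.066), CYP4X1 (0.352 ± 0.090), CYP4A11 (0.0999 ± 0.046) and CYP4A22 (0.0219 ± 0.021). CYP4F3 and CYP4F11 in wild type did not differ beyond their spread. CYP4F11, CYP4F2 and CYP4A11 each stood 1 place higher in the knockout than in wild type. The order depended on the length used. Per kb of the longest complete coding transcript, CYP4A11 and CYP4A22 stood 1 place higher in the knockout, and CYP4F2 was at place 5 in both groups. CYP4V2 has 9807 bases of annotated exon but such a transcript of 2042 bases, and per kb of it CYP4V2 led both groups, at 64.9 in the knockout and 56.0 in wild type.

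The shares of the 8 genes also differed between the groups. Of the summed level per kb of exon of the 8 genes, CYP4F2 made up 9.56% to 9.91% in knockout libraries and 1.18% to 1.36% in wild-type libraries. CYP4A11 made up 5.46% to 5.82% in knockout libraries and 0.0742% to 0.192% in wild-type libraries. CYP4F3 made up 27.2% to 27.5% in knockout libraries and 36.3% to 39.3% in wild-type libraries, although its own level did not pass the test. The summed signal of the 8 genes was 552 to 554 scaled CPM in knockout libraries and 426 to 449 in wild-type libraries.

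**Figure D3:**
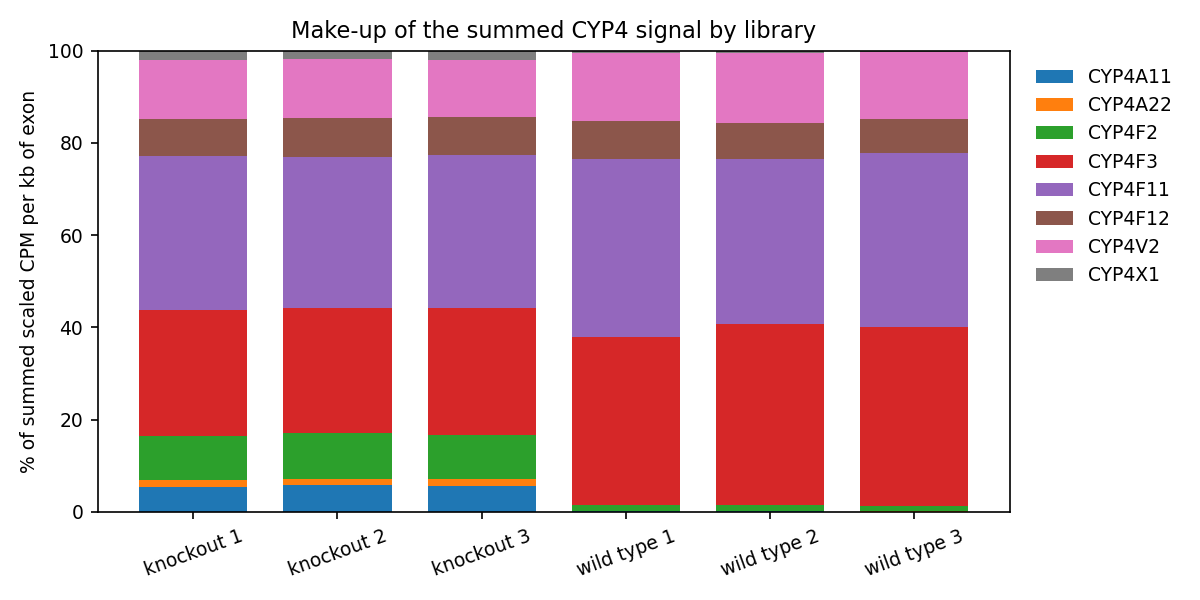
Share of each of the 8 genes in their summed scaled CPM per kb of exon, as stacked bars for 3 knockout libraries (left) and 3 wild-type libraries (right). CYP4F2 and CYP4A11 take larger shares in the knockout bars, and CYP4F3 takes 36.3% to 39.3% in wild type.

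Other CYP4 genes were mixed. Of 20 listed, 5 were in the table and tested. Of these, 4 were higher in the knockout, against 40.3% of all genes tested, and CYP4F8 was lower. CYP4B1, an enzyme of lung and bladder that hydroxylates short and medium chains, averaged 306 ± 6.1 scaled CPM in the knockout and 78.4 ± 2.8 in wild type (SD, n = 3 each), with a log2 fold change of 1.96 ± 0.032. CYP4F22, which hydroxylates ultra-long-chain fatty acids of skin, averaged 117 ± 5.6 in the knockout and 102 ± 3.5 in wild type. The transcribed pseudogenes CYP4F35P and CYP4F30P also rose. CYP4F35P averaged 1.99 scaled CPM in the knockout and 0.484 in wild type, and CYP4F30P averaged 1.61 in the knockout and 0.612 in wild type. Whether their reads came from coding CYP4F genes was not tested. CYP4F8 averaged 0.703 ± 0.25 in the knockout and 1.41 ± 0.20 in wild type. CYP4F35P and CYP4F30P were under 1 scaled CPM in every wild-type library, and CYP4F8 in every knockout library. Each of them thus entered the test only through the group where it was higher.

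Genes within 500 kb are described by locus, beside 40.3% higher and 39.6% lower over all genes tested. On chromosome 1, 4 of 9 coding neighbours were higher, 2 were lower and 3 did not pass, with a median log2 fold change of 0.15. The largest rises, as log2 fold changes, were in CYP4B1 (1.96) and in PDZK1IP1 (2.17), which encodes a small membrane protein and lies next to CYP4A22. MKNK1 (0.40) and CMPK1 (0.15) also rose, MOB3C (-0.16) and the centriole gene STIL (-0.97) fell, and ATPAF1 (0.00), EFCAB14 (0.01) and FOXD2 (0.29) did not pass. On chromosome 19, 6 of 15 neighbours were higher, 6 lower and 3 did not pass, with a median of -0.02. These counts were near the shares over all genes, as was the count higher on chromosome 1.

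Among the chromosome 19 neighbours, PGLYRP2, a peptidoglycan amidase that liver secretes, had the largest rise (log2 fold change 4.11), with means of 25.6 ± 0.44 scaled CPM in the knockout and 1.02 ± 0.26 in wild type (SD, n = 3 each). AKAP8L (0.56), RAB8A (0.58), NOTCH3 (0.52), CYP4F22 (0.19) and AP1M1 (0.19) rose. TPM4 (-1.85), a tropomyosin of the cytoskeleton, KLF2 (-1.45), CYP4F8 (-0.68), EPS15L1 (-0.45) and FAM32A (-0.25) were among those that fell, and AKAP8 (-0.02), WIZ (-0.02) and AC114267.1 (0.09) did not pass. Rises and falls were thus mixed on both sides of the CYP4F genes.

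On chromosome 4 all 6 neighbours of CYP4V2 rose, against 40.3% of all genes tested, with a median of 1.55. The plasma protease genes F11 and KLKB1, coagulation factor XI and prekallikrein, rose by 2.78 and 2.40 on the log2 scale, SORBS2 by 1.93, FAT1 by 1.18, TLR3 by 1.13 and FAM149A by 0.55. CYP4V2, at 0.21, changed least of the 7 measured coding genes there. The annotated end of CYP4V2 overlaps the start of KLKB1, on the same strand; estimated reads of KLKB1 were whole and those of CYP4V2 fractional in all 6 libraries. The medians of all tested genes were -0.04 on chromosome 1, 0.05 on chromosome 19 and -0.03 on chromosome 4.

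**Figure D4:**
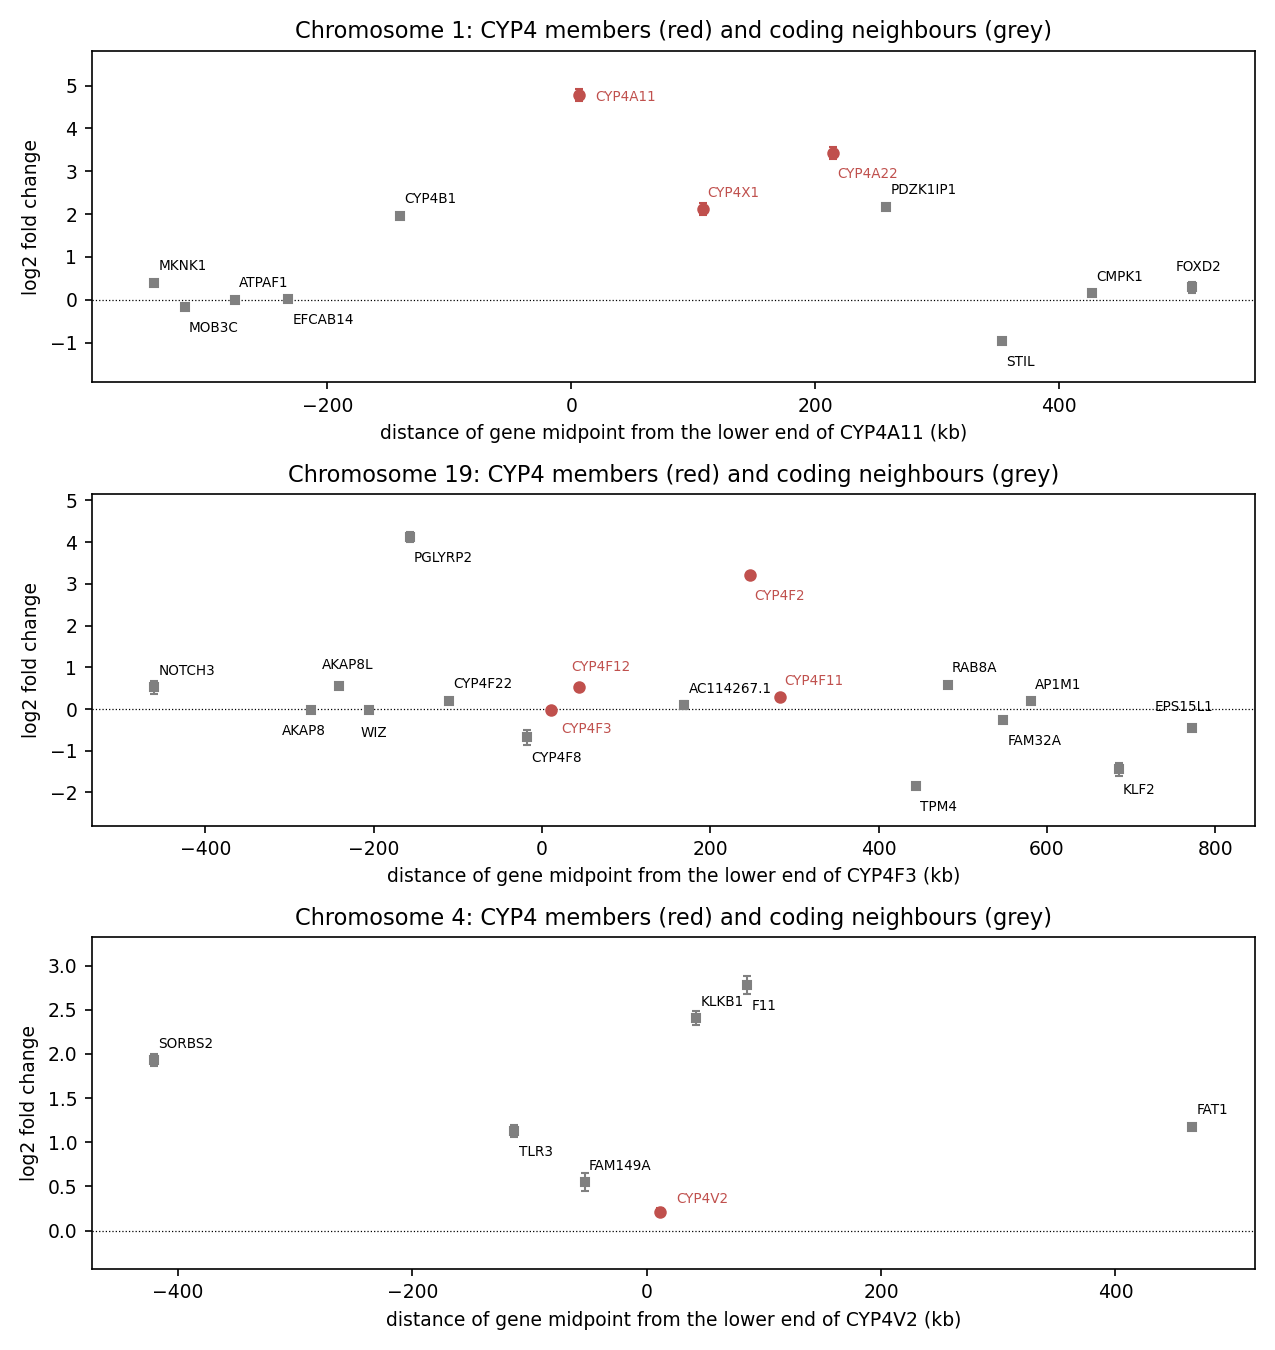
Log2 fold change (knockout minus wild type, bars are SE) of CYP4 members (red circles) and other measured coding genes within 500 kb that are reported here (grey squares), by distance in kb, at the 3 loci. In the CYP4F cluster CYP4F2 (3.20) stands well above CYP4F3, CYP4F12 and CYP4F11, and CYP4V2 at 0.21 lies under all 6 of its neighbours.

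P450 enzymes need electrons from a reductase or cytochrome b5. Of 8 such genes tested, 5 rose and 3 fell, with a median log2 fold change of 0.37. For this list and those below, the shares over all genes tested were 40.3% higher and 39.6% lower, 79.9% in all. POR, the reductase of microsomal P450s, averaged 196 ± 9.7 scaled CPM in the knockout and 125 ± 1.7 in wild type (SD, n = 3 each; log2 fold change 0.64). CYB5A (0.82), CYB5B (1.09) and CYB5R2 (1.22) also rose, and CYB5R3 (-0.51), CYB5R4 (-0.46) and CYB5R1 fell.

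The dehydrogenases that act after omega-hydroxylation rose at 8 of 10 genes tested, against 40.3% of all genes. Their median was 1.21, 1 fell and 1 did not pass. ADH4, an alcohol dehydrogenase that takes omega-hydroxy fatty acids, averaged 19.5 ± 1.2 scaled CPM in the knockout and 0.163 ± 0.018 in wild type (SD, n = 3 each). ADH1A averaged 13.4 ± 0.90 in the knockout and 0.108 ± 0.10 in wild type, and ADH1B 417 ± 4.1 in the knockout and 41.7 ± 1.3 in wild type. ALDH3A2, the fatty aldehyde dehydrogenase mutated in Sjögren-Larsson syndrome, averaged 421 ± 5.4 in the knockout and 239 ± 3.5 in wild type (log2 fold change 0.81). ALDH3A1 was the member that fell, with 34.0 ± 1.3 in the knockout and 179 ± 4.5 in wild type. ADH1A, ADH1B and ADH1C are close copies, and the split of reads between them is uncertain.

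Of 23 tested genes of peroxisomal fatty acid oxidation, 18 rose, 2 fell and 3 did not pass, with a median of 0.70. EHHADH, the bifunctional enzyme needed for dicarboxylic acids, averaged 235 ± 3.1 scaled CPM in the knockout and 60.9 ± 2.9 in wild type (log2 fold change 1.94). CROT, which passes shortened chains to carnitine, rose by 2.37 on the log2 scale and NUDT7, a coenzyme A hydrolase, by 2.25. NUDT19 (-0.56) and the import receptor gene PEX5 (-0.36) fell.

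PPARA, the nuclear receptor commonly described as the inducer of CYP4A genes, did not pass the test: it measured 102, 99.8 and 103 scaled CPM in knockout libraries, against 101, 99.7 and 103 in wild-type libraries (log2 fold change 0.01 ± 0.030 SE, limma adjusted p = 0.877). Its partner RXRA rose by 0.18 ± 0.036. Of 24 tested genes of the list of PPARA, partners and targets, 16 rose, 6 fell and 2 did not pass, with a median of 0.34. APOA5, an apolipoprotein gene, averaged 10.1 ± 0.14 in the knockout and 1.04 ± 0.51 in wild type. FABP1, the liver fatty acid binding protein, had 58.9, 62.1 and 56.7 in knockout libraries, against 0, 0.0957 and 0 in wild-type libraries. The targets SLC25A20 (-0.80) and ANGPTL4 (-0.77) fell most. EHHADH and ACSL1 are among the genes on both this list and the peroxisomal list.

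**Figure D5:**
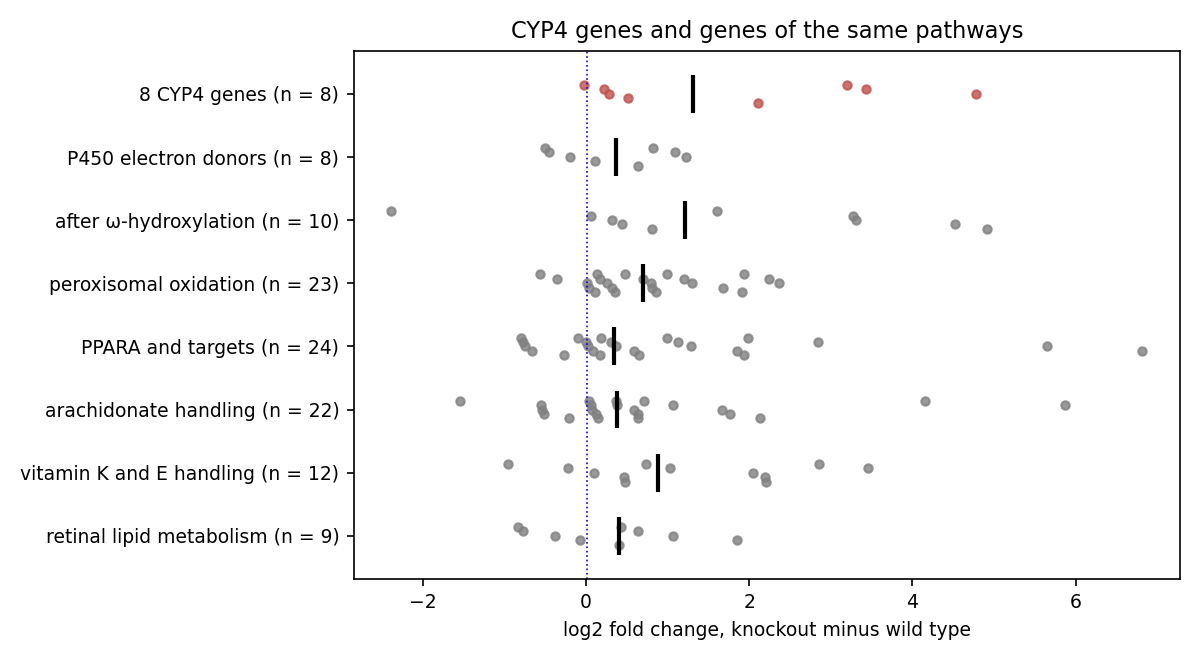
Log2 fold change (knockout minus wild type) of the 8 CYP4 genes (red) and of tested genes on 7 related lists (grey), with the median of each list (black bar) and of all tested genes (dotted line, at 0.01). All lists spread to both sides of the dotted line, with medians of 0.34 to 1.21 for the 7 related lists.

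Of 22 tested genes that handle arachidonic acid and its products, 14 rose, 4 fell and 4 did not pass, with a median of 0.38. Those that rose include the epoxygenase genes CYP2C19 (24.6 ± 0.38 scaled CPM in the knockout, 0.919 ± 0.14 in wild type) and CYP2C8 (4.53 ± 0.53 in the knockout, 0.657 ± 0.18 in wild type). They belong to a family of close copies, and the split of reads is uncertain. EPHX2, the soluble epoxide hydrolase, rose by 0.71. PTGS1, a cyclooxygenase, fell by 1.55 and PTGES2 by 0.55 on the log2 scale.

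Of 12 tested genes of vitamin K and vitamin E handling, 9 rose, 2 fell and 1 did not pass, with a median of 0.88. The largest rises were in genes of lipoprotein assembly and lipolysis, MTTP (3.46), LIPC (2.86) and APOB (2.20), which serve fats in general. AFMID (0.73), also on the list, encodes a formamidase of tryptophan breakdown. VKORC1, the vitamin K epoxide reductase, fell by 0.22 on the log2 scale. Of 9 tested genes of retinal and long-chain lipid metabolism, 5 rose, 3 fell and 1 did not pass, with a median of 0.40; RDH5 (1.84), FADS1 (1.07) and FADS2 (0.64) rose most, and LRAT (-0.83) and ELOVL2 (-0.77) fell most.

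Among the genes whose 6 values lay nearest to those of CYP4A11, by Euclidean distance on the log2 scale over 6 libraries, were GPR35 (distance 0.33) and APOA2 (0.44). GPR35 averaged 21.4 ± 1.4 scaled CPM in the knockout and 0.342 ± 0.14 in wild type, and the apolipoprotein gene APOA2 21.7 ± 1.6 in the knockout and 0.344 ± 0.27 in wild type (SD, n = 3 each). With 2 groups, this likeness reflects one difference in level.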

How the data were processed

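RNA of HepaRG cells was measured in 6 libraries, grouped by the sample titles. FastQC and Trim Galore, Bowtie2, then edgeR and limma appear, with hg38, per the submitters' processing notes. Their roles and versions, the annotation and the gene filter were not given in the sources used here. The deposited values are a signal, CPM with scaling, and are linear in spite of a table name that says log2: columns summed to 1028470 to 1042826 in the knockout and 936409 to 947974 in wild type, so the authors had applied a factor per library. The design assumed either scale; the linear form was used. Values under 20 reads were all hundredths of a read, within 0.05 of a hundredth, at a step fitted to those same values. Only 67.9% to 76.6% of them were whole within 0.006 of a read, so no count test was run.

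Of 16673 rows, 14 pseudoautosomal copies were left out and 21 date-like symbols restored; 16608 identifiers matched GENCODE 29 (GRCh38) without version. Genes above 1 scaled CPM in at least 3 of 6 libraries were fitted with limma 3.58.1 in R 4.3.3 on log2(value + 0.5), by group, with a mean-variance trend, two-sided. Listed genes under 1 scaled CPM in every library of a group entered the test only through the other group. The fit was also run on simulated data in which few genes changed. In these data 79.9% of genes tested were called, so that run does not check the fit in this setting. Alternatives were 2 pseudocounts, 2 filters, 2 scalings, no trend, a replicate block and leaving out each library. Python 3.11.15, pandas 2.3.3, numpy 2.4.6, scipy 1.17.1, Biopython 1.88 and matplotlib 3.10.9 were used. The members and lists were chosen with earlier results of these data known. Named were the 8 members, up to 3 rises and 2 falls per list with a mean of at least 1 scaled CPM, and fixed genes of the pathways. All coding neighbours were also named, and the nearest genes to the member with the largest change on the tested scale. Lists are described by counts and medians without a set test. Some genes that this rule names are not reported here.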

Additional observations from a re-analysis of the deposited data

How the results depend on the processing

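All 7 calls of higher CYP4 genes kept direction and side of the threshold under each alternative run (other pseudocounts, filters, scalings, no trend, replicate block, each library left out), except that of CYP4V2 with equal sums (0.08, adjusted p = 0.0566). The count of CYP4 genes called lower was 0 and became 1, CYP4F3, with equal sums (-0.17), with quantile normalization (-0.13) and without wild-type library 1 (-0.0739); over the libraries left out it ranged from 0 to 1. CYP4F3 turned to 0.0107 without wild-type library 2. The share of calls that were higher among all genes was 50.4%, and 41.1% with equal sums. Replicate numbers did not pair the libraries: deviations of same-numbered libraries correlated at -0.02, -0.061 and 0.025 over genes. With the replicate block, 12916 genes were called over all genes, against 12960 without it, and the block changed no call among the 8 CYP4 genes. The size of the CYP4A22 change, 2.64 to 5.10 on the log2 scale, is limited by its 5.41 wild-type reads.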
